A study of Mus musculus with 33 samples.

Results

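H3K27me3 was followed in wild-type (WT) cells from mESC to EB week 3. The 4 samples were chosen by their titles from 33 in the series, and each gave 1 list of ChIP-seq domains, genomic stretches in which reads recovered with an antibody to the mark exceeded the input. The first sample was undifferentiated E14 mESC, a mouse embryonic stem cell line grown in serum with leukemia inhibitory factor on gelatin or feeder-coated plates. The other 3 were embryoid bodies (EBs) of the same WT line, which were started as hanging drops, grown as floating spheroids and labelled as differentiated at week 1, week 2 or week 3. No sample carried a deletion or received an agent. An EB is a mixture of cell types, so a domain found in part of the cells and a weak domain found in all of them cannot be told apart. Each stage held 1 library, so there was no replicate check, no difference was tested and no p-value is given. Intervals are 95% intervals and cover counting error over promoters or domains only. They treat promoters as independent, although neighbours can share a domain, with up to 74 starts in 1 mESC domain and 182 in 1 week 2 domain. Intervals over promoters are therefore too narrow.

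H3K27me3 is laid down by the polycomb repressive complex 2 (PRC2), whose core is formed by Ezh2, Eed and Suz12, and is read by polycomb repressive complex 1. In embryonic stem cells it covers promoters of developmental regulators, many of which also carry H3K4me3, a mark of active or poised promoters, and are then called bivalent. Broad, shallow H3K27me3 is also known from gene-poor chromatin. Here a promoter was called marked when a domain lay within 5 kb of the start of a protein-coding gene, and 22367 genes of the GENCODE annotation of mm9 were scored.

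The 250 bases upstream of 5 gene starts are given as examples of 4 patterns, not as typical members of them. Each CpG is in capitals, since CpG-rich promoters are the usual recruitment ground of PRC2. Zic1 and Raet1c were marked in every list, Ankrd6 in mESC only, Skap2 at every EB week but not in mESC, and Dbp at week 3 only. Except for Zic1, which was chosen after its values were seen, each is the promoter of its pattern whose domain had the highest mean read count, taken at week 1 for Raet1c and Skap2, in mESC for Ankrd6 and at week 3 for Dbp. The bases were read from mm9 and are written 5′ to 3′ on the strand of the gene.
Zic1 (chr9:91260649-91260898, minus strand, 26 CpGs): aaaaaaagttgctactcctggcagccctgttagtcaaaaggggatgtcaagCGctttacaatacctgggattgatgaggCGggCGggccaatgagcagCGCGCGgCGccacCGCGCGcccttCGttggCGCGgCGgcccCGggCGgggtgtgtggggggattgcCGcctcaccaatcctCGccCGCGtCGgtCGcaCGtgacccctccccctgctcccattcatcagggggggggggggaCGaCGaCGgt
Raet1c (chr10:21893077-21893326, plus strand, 7 CpGs): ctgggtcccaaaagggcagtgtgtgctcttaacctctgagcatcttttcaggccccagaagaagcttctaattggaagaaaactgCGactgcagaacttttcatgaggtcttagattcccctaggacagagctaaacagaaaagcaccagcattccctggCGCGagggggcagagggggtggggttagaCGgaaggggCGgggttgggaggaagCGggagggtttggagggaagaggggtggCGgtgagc
Ankrd6 (chr4:33037817-33038066, minus strand, 25 CpGs): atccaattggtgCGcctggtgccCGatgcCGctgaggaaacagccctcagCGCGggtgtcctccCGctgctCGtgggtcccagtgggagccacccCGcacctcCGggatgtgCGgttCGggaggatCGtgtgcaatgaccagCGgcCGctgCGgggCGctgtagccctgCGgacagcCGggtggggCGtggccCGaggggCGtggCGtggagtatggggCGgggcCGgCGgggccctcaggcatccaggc
Skap2 (chr6:51962549-51962798, minus strand, 24 CpGs): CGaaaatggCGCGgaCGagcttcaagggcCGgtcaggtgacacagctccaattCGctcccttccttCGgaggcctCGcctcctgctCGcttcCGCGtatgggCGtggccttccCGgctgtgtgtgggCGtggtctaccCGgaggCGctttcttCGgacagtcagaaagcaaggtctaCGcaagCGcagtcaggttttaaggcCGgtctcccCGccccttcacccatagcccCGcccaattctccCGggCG
Dbp (chr7:52960208-52960457, plus strand, 14 CpGs): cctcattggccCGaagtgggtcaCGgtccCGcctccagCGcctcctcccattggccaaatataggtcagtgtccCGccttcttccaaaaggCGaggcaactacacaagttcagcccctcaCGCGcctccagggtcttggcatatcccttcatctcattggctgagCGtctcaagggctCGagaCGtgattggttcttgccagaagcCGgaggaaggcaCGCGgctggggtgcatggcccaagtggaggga
The Zic1 and Raet1c bases lay wholly inside a domain of all 4 lists, and those of Skap2 wholly inside the week 2 and week 3 domains. The Ankrd6 and Dbp bases lay outside every domain and were called marked through a domain elsewhere in the 5 kb window.

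The 4 lists differed in breadth before any gene was considered. The mESC list held 8161 domains over 959.7 Mb (36.1% of the genome). The week 1 list held 6673 domains over only 101.3 Mb (3.81%). The week 2 list held 4769 domains over 1165 Mb (43.9%), and the week 3 list held 9488 domains over 791.4 Mb (29.8%). The mESC, week 2 and week 3 lists thus covered 9.48, 11.5 and 7.82 times the length of the week 1 list. Domains were called in bins of 1750 bp at week 1 and of 1800 bp in the other lists. The lowest mean read count of any domain was 7.19 reads per bin at week 1 against 3.04 in mESC, 5 at week 2 and 6.34 at week 3. The sources do not say if mean counts were adjusted for depth, so these lowest counts describe each list and are not levels to be set against each other. The part of the calling in the narrow week 1 list was not tested. The shares of all promoters and the gene list counts most affected are therefore also given at equal covered length. For this, each list was cut to the length of the week 1 list by taking the domains of highest mean count. The cut left 1784, 6673, 826 and 2069 domains in mESC and at weeks 1, 2 and 3. Their median lengths were 19.8, 8.75, 19.8 and 16.2 kb. At a like covered length, more and shorter domains can meet more gene starts. A long domain of low mean count was dropped with every start inside it. Counts at equal covered length therefore depend in part on the cut. The base composition, H3K4me3, H3K9me3 and distance results were not recomputed at equal covered length.

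Chromosomes 8 and 11 stood apart from the other autosomes. On chromosome 8 domains covered 64.1%, 9.24%, 66.5% and 74.5% in mESC and EB weeks 1, 2 and 3. The medians of the 17 other autosomes were 33.4%, 3.09%, 44.6% and 27.4%. Chromosome 11 was covered to 56.2% in mESC and 14.2% at week 1, above the highest other autosome in both lists (45.0% and 5.20%). At weeks 2 and 3 it was at 38.2%, within the range of the others (30.7 to 59.9%), and at 37.9%, just above theirs (21.0 to 35.7%). These chromosomes, 9.55% of the genome, held 26.0% of the week 1 domains. The X chromosome was nearly free of domains at weeks 1 and 3, with 0.350% and 0.515% covered, against 6.81% in mESC and 7.44% at week 2.

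**Figure D1:**
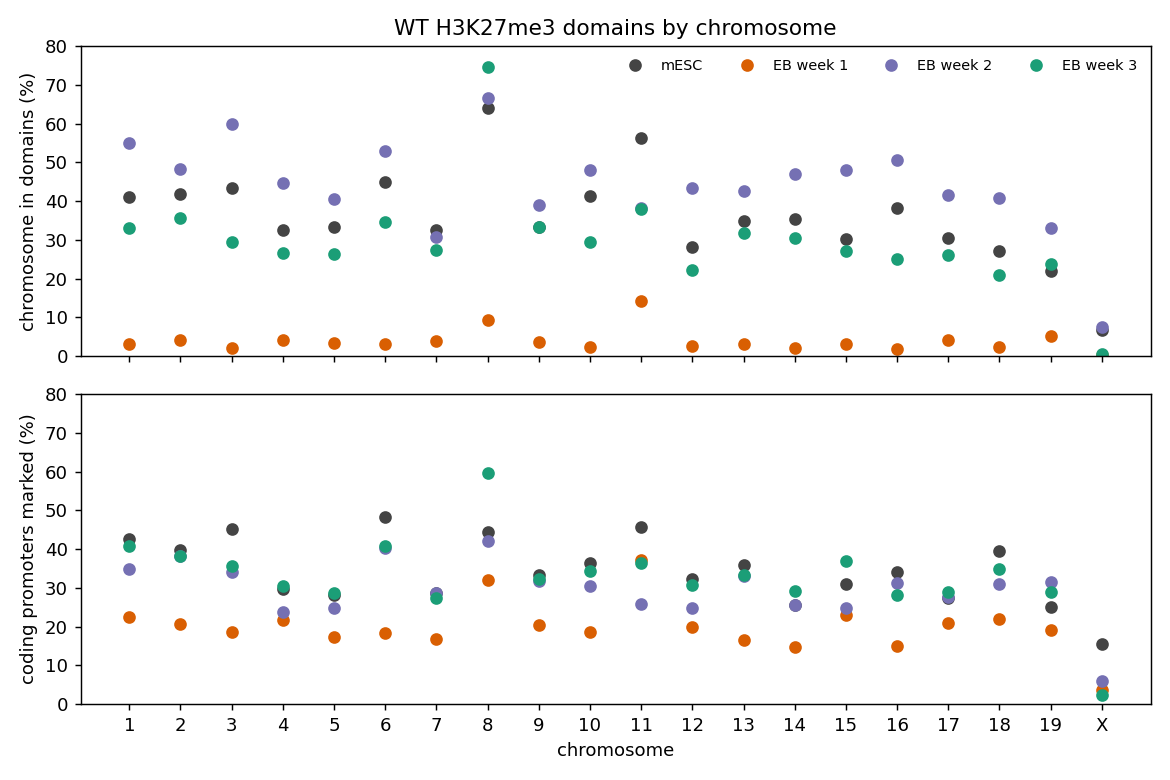
Share of each chromosome's length inside H3K27me3 domains (upper panel, percent) and share of its coding promoters marked (lower panel, percent), 1 point per list and chromosome. Chromosome 8 reaches 74.5% at week 3, chromosome 11 reaches 14.2% at week 1, and X lies lowest of those drawn in all 4 lists.

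To ask how stable the mark was at promoters, each coding promoter was followed through the 4 lists. In mESC 7800 promoters were marked (34.9%, interval 34.3 to 35.5). The EBs had 4585 at week 1 (20.5%), 6671 at week 2 (29.8%, 29.2 to 30.4) and 7429 at week 3 (33.2%, 32.6 to 33.8). Thus mESC had 1.70 times the marked promoters of week 1 but 9.48 times its covered length. At equal covered length the lists marked 9.30%, 20.5%, 5.59% and 9.70% of promoters, so that week 1 was then the highest and not the lowest. Week 1 then also had the most domains (6673, against 826 to 2069 in the other lists), so the cut itself favours this order. In at least 1 list 11381 promoters were marked (50.9%), and 10986 were never marked. The largest single pattern among marked promoters was marking in every list, with 2272 promoters (10.2%, 9.77 to 10.6). Leaving out the week 1 list raised it to 4056 promoters (18.1%). The second pattern, 1784 promoters, was marking in mESC, week 2 and week 3 but not week 1 (7.98%). Marking in a single list was seen for 3527 promoters (31.0% of those ever marked).

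**Figure D2:**
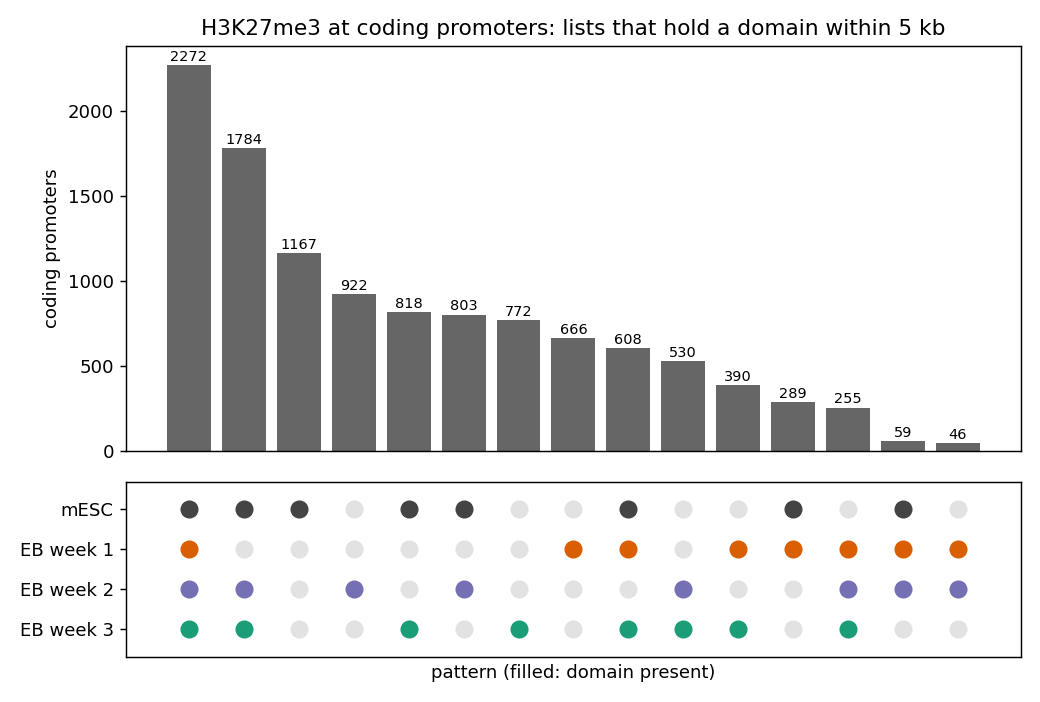
Number of coding promoters (bars, linear axis) for each combination of lists that hold a domain within 5 kb, with the combination shown by filled circles under each bar. The 2272 promoters marked in all 4 lists form the tallest bar, followed by the 1784 that were unmarked only at week 1. The 10986 promoters with no domain are not drawn.

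From mESC to week 3, 5482 of the 7800 promoters kept the mark (70.3%, 69.3 to 71.3) and 2318 lost it (29.7%, 28.7 to 30.7), which is 10.4% of all promoters. Of the 14567 promoters unmarked in mESC, 1947 gained it (13.4%, 12.8 to 13.9), or 8.70% of all promoters. Loss and gain were of like number. At equal covered length 52.7% of the mESC promoters were lost and 5.84% of the others gained. Of the lost promoters 1167 were unmarked at every EB week (50.3%), while 862 were still marked at week 2 (37.2%). Of the gained promoters 772 were marked at week 3 only (39.7%) and 255 at all 3 weeks (13.1%). Step by step, 4572 promoters were lost and 1357 gained from mESC to week 1, 1953 lost and 4039 gained from week 1 to week 2, and 1830 lost and 2588 gained from week 2 to week 3. The steps into and out of week 1 thus moved in the direction of the covered length. Without chromosomes 8 and 11, 9.19% of promoters were always marked, 31.7% of the mESC promoters were lost and 13.0% of the others gained.

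Most homeobox, Pax and Wnt genes were always marked in the lists as deposited, but fewer than 50% of the homeobox genes outside the Hox clusters, of the Pax genes and of the Wnt genes were at equal covered length. All 40 gene entries of the 4 Hox clusters, which set position along the body axis, were marked in every list. Of 125 homeobox gene entries outside these clusters 109 were always marked (87.2%, against 10.2% of all promoters), and 116, 114, 114 and 117 were marked in mESC and at weeks 1, 2 and 3. Of 9 Pax genes, regulators of eye, neural tube and muscle, 8 were always marked and Pax4 was marked in mESC and at week 3. Of 19 Wnt ligand genes 16 were always marked, and all 19 were marked in mESC and at week 3. T-box genes were always marked in 12 of 17 cases, forkhead genes in 21 of 43 and Sox gene entries in 10 of 19. At equal covered length all 40 Hox entries and 47 of the 125 other homeobox entries were always marked, against 2.01% of all promoters. The counts were then 4 of 9 for Pax, 8 of 19 for Wnt ligands, 5 of 17 for T-box genes, 5 of 43 for forkhead genes and 4 of 19 for Sox entries.

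Each Hox cluster lay entirely inside 1 domain in every list. The domain over the Hoxa cluster (chr6:52105366-52210874) measured 518, 206, 538 and 776 kb in mESC and EB weeks 1, 2 and 3. Over Hoxd (chr2:74506367-74603200), which patterns the limb and the trunk, it was 866, 156, 1328 and 252 kb. The domains over Hoxb and Hoxc hardly moved in length. Hoxb was covered by 666, 583, 669.6 and 666 kb and Hoxc by 459, 457, 459 and 515 kb. The Hoxb and Hoxc domains were the longest of the whole week 1 list, so the 2 clusters kept in the narrow list nearly the breadth they had in the broad ones, whereas Hoxa and Hoxd did not. Hoxb lies on chromosome 11, one of the chromosomes that stood apart. The 40 entries are therefore 4 domains, not 40 separate observations.

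Skap2 lies beside the Hoxa cluster and had the highest mean count at week 1 among the ranked promoters marked at every EB week but not in mESC. The mESC domain over Hoxa began at position 51984001 of chromosome 6, upstream of the Skap2 start at 51962548. At week 1 Skap2 had a domain of its own of 14 kb (51948751 to 51962750, mean count 28.9). At weeks 2 and 3 the Hoxa domain itself began at 51793201 and 51705001 and took in the gene start.

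Regulators of all 3 germ layers were among the promoters that kept the mark. In neuroectoderm, 15 of 22 proneural basic helix-loop-helix genes were always marked, including Neurog2 and Neurod1, which drive neuronal differentiation. Neurog2 had domains of 182, 31.5, 34.2 and 169 kb in mESC and at weeks 1, 2 and 3, and Neurod1 of 302, 31.5, 482 and 184 kb. Pax6, the eye and forebrain regulator, lay in domains of 299, 66.5, 536 and 301 kb. Otx2, which marks the anterior neural plate, lay in domains of 263, 29.8, 79.2 and 140.4 kb. All 4 genes also had an H3K4me3 domain within 2 kb of the start in every list. Of 20 neural crest genes 15 were always marked and all 20 were marked at week 3, Sox10 being the one that was unmarked in mESC. Of all promoters 10.2% were always marked. With the lists at equal covered length, 6 of the 22 proneural and 4 of the 20 neural crest genes were, against 2.01% of all.

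In mesoderm, 13 of 19 cardiac transcription factor genes were always marked, among them Nkx2-5, Tbx5, Gata4, Hand1 and Hand2, against 10.2% of all promoters. The count at equal covered length was 7 of 19, against 2.01% of all. The Nkx2-5 domain was 70.2 kb in mESC, 49.0 kb at week 1, 46.8 kb at week 2 and 61.2 kb at week 3. The Gata4 domain was 142, 63.0, 64.8 and 101 kb long. Hand2, on chromosome 8, lay in domains of 898, 57.8, 2048 and 2047 kb. Of 24 genes of the cardiac contractile apparatus and conduction 2 were always marked, and 11 were never marked. Their marked counts were 9, 4, 5 and 7, or 37.5% in mESC and 29.2% at week 3, close to the 34.9% and 33.2% of all promoters. Myl3, Myl7 and Casq2 were marked in mESC only. Myh6, the atrial heavy chain of myosin, was marked in mESC (36.0 kb) and at week 3 (32.4 kb), and Actc1, cardiac actin, at weeks 2 and 3 (135 and 97.2 kb).

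Of 17 endoderm transcription factor genes 13 were always marked, including Sox17, Foxa2 and Pdx1, against 10.2% of all promoters. Only 3 of the 17 were at equal covered length, against 2.01% of all. Foxa2, a pioneer factor of gut and liver, lay in domains of 1607, 96.2, 452 and 1615 kb. Sox17 lay in domains of 151, 33.2, 162 and 309.6 kb. Pdx1, a pancreas regulator, and Cdx2, an intestine and trophoblast regulator, shared 1 domain of 189 kb in mESC, of 140.4 kb at week 2 and of 254 kb at week 3. At week 1 they lay in separate domains of 28.0 and 29.8 kb. Of 19 liver and yolk sac genes 2 were always marked (Rbp4 and Amn), or 10.5%, near the 10.2% of all promoters. By stage 9, 2, 7 and 7 were marked (47.4%, 10.5%, 36.8% and 36.8%, against 34.9%, 20.5%, 29.8% and 33.2% of all promoters). Alb and Afp, the albumin and alpha-fetoprotein genes, shared 1 domain of 146 kb in mESC with a low mean count of 4.22. Neither was marked at week 1, both were marked at week 2 and only Alb was marked at week 3.

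**Figure D3:**
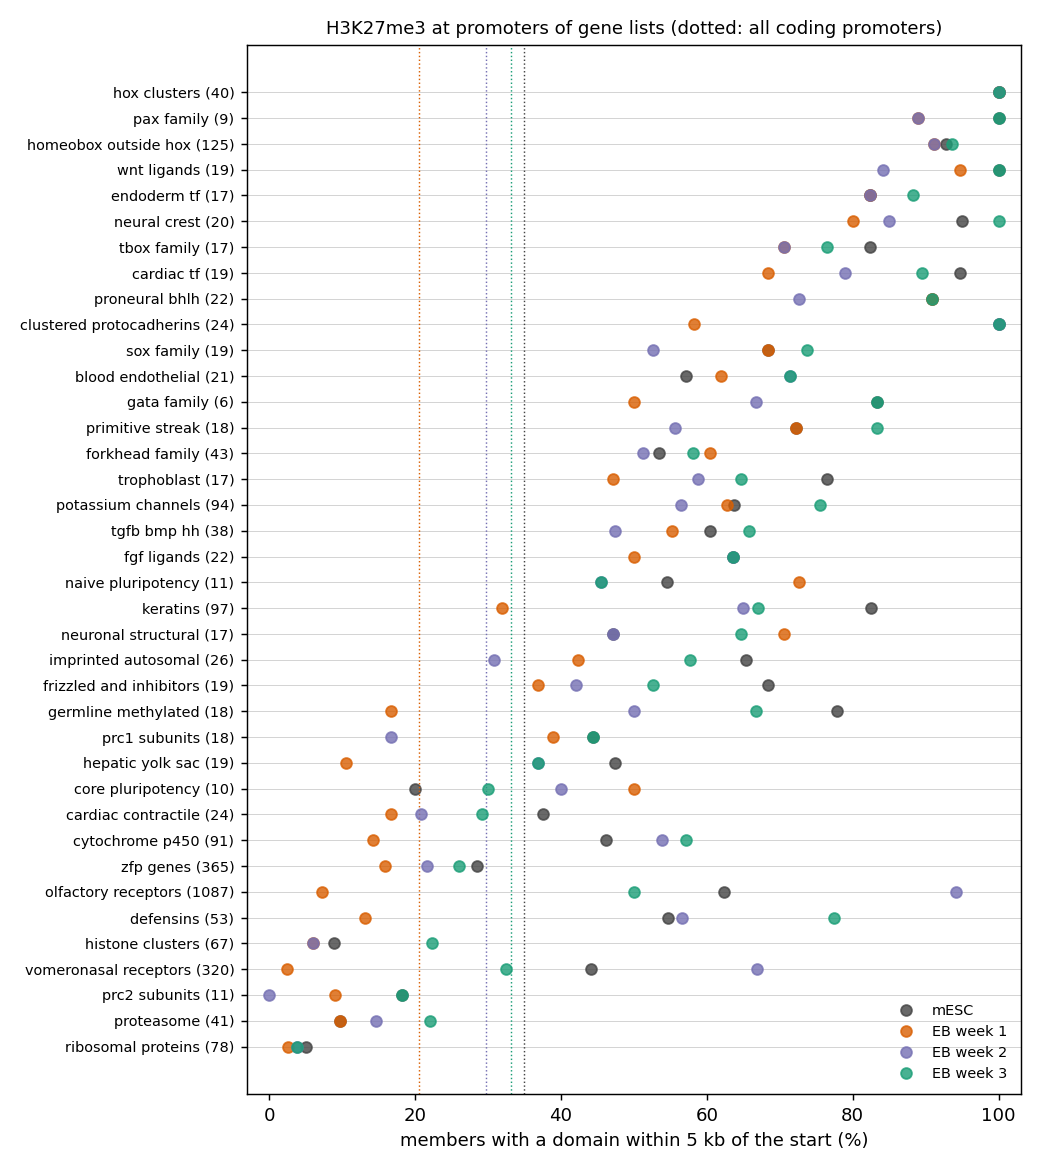
Share of the members of each gene list (percent) with an H3K27me3 domain within 5 kb of the start, 1 point per list of domains, with the number of gene entries in parentheses and lists ordered by the share always marked. Where points coincide, later stages are drawn over earlier ones. Dotted lines give all coding promoters (34.9%, 20.5%, 29.8% and 33.2%). Hox, Pax, other homeobox and Wnt genes lie at the right in all 4 lists, ribosomal protein genes at the left, and olfactory receptor genes range from 7.27% at week 1 to 94.2% at week 2.

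Pluripotency genes did not move as a group. Of 10 core genes 2, 5, 4 and 3 were marked by stage, and Nanog, Sall4, Lin28a, Dppa2 and Dppa4 were never marked. The counts were 2, 5, 1 and 1 at equal covered length. Pou5f1, which encodes Oct4, was marked in mESC by a domain of 7.20 kb with a mean count of 18.7, and at week 1 by one of 5.25 kb with a mean count of 14.9. It was not marked at weeks 2 and 3. The mESC domain ran from 35641801 to 35649000 on chromosome 17 and so covered the Pou5f1 gene, whose H3K4me3 domain was present at every stage. The same domain made neighbouring Tcf19, a cell cycle gene, one of the promoters called in mESC only. Sox2, which also acts in neural progenitors, was marked in every list, with domains of 19.8, 64.8, 57.6 and 50.4 kb, so it was the narrowest in mESC although that list was a broad one.

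In the lists as deposited, several genes of the pluripotent state and of Nodal signalling were unmarked in mESC and marked in EBs. These genes come from the lists used for all comparisons, but they were singled out after their values were seen. Utf1, a chromatin-bound factor of pluripotent cells, lay in domains of 87.5, 36.0 and 166 kb at weeks 1, 2 and 3. Fgf4, a growth factor made by pluripotent cells, lay in domains of 12.2, 84.6 and 75.6 kb. Lefty2, an inhibitor of Nodal, was marked at all 3 weeks (14, 10.8 and 7.20 kb). Nodal itself (7.00 and 7.20 kb) and Lefty1 (31.5 and 19.8 kb) were marked at weeks 1 and 3. Tdgf1, the Nodal co-receptor, was marked at weeks 1 and 2 (12.2 and 19.8 kb). The domains of Nodal and Lefty2 were short at every week at which they were marked. Sox2 was the only core gene marked at weeks 2 and 3 when the lists had equal covered length. Utf1, Fgf4 and Tdgf1 were then marked at week 1 but not at weeks 2 and 3.

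Naive pluripotency genes followed several patterns. Of 11 genes 6, 8, 5 and 5 were marked by stage (54.5%, 72.7%, 45.5% and 45.5%, against 34.9%, 20.5%, 29.8% and 33.2% of all promoters). At equal covered length the counts were 5, 8, 4 and 4 (45.5%, 72.7%, 36.4% and 36.4%, against 9.30%, 20.5%, 5.59% and 9.70% of all promoters). Dppa3 was marked in mESC (12.6 kb) and at week 1 (3.50 kb) only, the pattern of Pou5f1. Klf4 was marked in mESC, at week 1 and at week 3, and so was Esrrb. Klf2 and Klf5 were marked at week 1 only, each by a single bin of 1.75 kb. Zfp42 on chromosome 8 was marked at week 2 only, inside a domain of 3562 kb, which reached far beyond the gene.

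Most PRC2 genes were never marked, whereas polycomb repressive complex 1 genes were never marked about as often as all promoters. Of 11 genes of PRC2 and its partners 8 were never marked (72.7%, against 49.1% of all promoters), including Eed, Suz12 and Jarid2. None was marked at week 2. Ezh2, the methyltransferase, was marked at week 3 only, by a domain of 18 kb, and Phf19 in mESC and at weeks 1 and 3. Of 18 polycomb repressive complex 1 genes Bmi1, Pcgf1 and Cbx8 were always marked. The Bmi1 domain was 441, 45.5, 562 and 270.0 kb long. Of 78 ribosomal protein genes, a housekeeping comparison, 71 were never marked and none was always marked. Actb and Gapdh had no domain in any list.

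Among the promoters marked in mESC only, the highest mean counts belonged to Ankrd6, Scap, Tcf19, Spop and Morc2a. Ankrd6 was called from a single 1.80 kb bin with a mean count of 21.2, and Scap, which escorts the sterol sensing machinery, from a domain of 12.6 kb with a mean count of 20.2. Spop and Morc2a lie on chromosome 11. The mESC domains at all 2318 lost promoters had a median length of 90.0 kb and a median mean count of 4.85, with a shared domain counted once per promoter. At the always marked promoters the mESC domains were longer and stronger (137 kb and 6.14). Of the gene families, Meis3 and Pou6f1 were the only lost members of 116 marked homeobox entries, and 1 of 14 T-box genes was lost (Tbx22). Tbx22 lies on the X chromosome, where 127 of 145 mESC promoters were lost. Frizzled genes and Wnt inhibitors lost 3 of 13 (Fzd2, Fzd4 and Fzd6), a share near the 29.7% of all promoters.

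Among the promoters marked at every EB week but not in mESC, the highest mean counts at week 1 after Skap2 belonged to Slc27a2, Kcnk4, Tubb3 and Sall2. Tubb3, the neuronal beta tubulin used as a marker of neurons, lies on chromosome 8 and had domains of 7.00 kb at week 1, 36.0 kb at week 2 and 34.2 kb at week 3, with mean counts of 21.3, 7 and 14.4. Its promoter had an H3K4me3 domain at every stage. Kcnk4, a potassium channel, had domains of 15.8, 12.6 and 12.6 kb, and Sall2, a zinc finger factor, of 7.00, 12.6 and 12.6 kb. Other neuronal structural genes took the same pattern: Ina (10.5, 12.6 and 23.4 kb) and Stmn2 (14, 101 and 28.8 kb). Of the 17 neuronal structural genes 8 were marked in mESC and 11 at week 3. Of the 9 that were unmarked in mESC 4 gained the mark by week 3, against 13.4% of all promoters. The count was 5 of 17 both in mESC and at week 3 when the lists had equal covered length.

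Among potassium channel genes more entries gained the mark than lost it. Of 94 entries, 60 were marked in mESC and 71 at week 3, with 16 of 34 unmarked entries gained and 5 of 60 marked entries lost. Over all promoters 34.9% and 33.2% were marked at these stages, 13.4% were gained and 29.7% were lost. The marked entries numbered 19 and 24 of 94 at equal covered length. Among the promoters marked at week 3 only, the highest mean counts belonged to Dbp, a clock-controlled factor, Igf2bp1, Vmn1r180, Mrrf and Cd59b. The Dbp domain was 3.60 kb long and ended at 52956000, upstream of the start at 52960458. Histone gene clusters went from 6 to 15 of 67 marked, and the 9 gained were marked at week 3 only. These shares, 8.96% and 22.4%, were below the 34.9% and 33.2% of all promoters, and the 15 marked promoters lay in 7 domains. There was no rise at equal covered length, with 2 marked at each of these stages.

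The highest mean counts among the always marked promoters at week 1 belonged to Raet1c, Sfi1, Dnahc14, H2-Q6 and Zic1. The Raet1c domain had nearly the same ends in all lists (63.0, 68.2, 68.4 and 68.4 kb) and mean counts of 26, 44.3, 32.6 and 36.6. Raet1c and H2-Q6 belong to multigene families, and the authors kept 1 alignment per read, so the counts of near-identical copies cannot be told apart and these values are uncertain. Sfi1 lies on chromosome 11. Dnahc14 was called at week 1 from a single bin of 1.75 kb. Zic1, a neural and neural crest regulator, had a week 1 domain of 87.5 kb with a mean count of 35 and domains of 1039, 1942 and 162 kb in mESC and at weeks 2 and 3.

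The promoters that were marked in the 3 broad lists but not at week 1 were of another kind. Medians were taken over promoters, so a domain counted once for each promoter it marked. The 1784 promoters lay in 941, 814 and 987 distinct domains. The median length was 232 kb in mESC, 455 kb at week 2 and 166 kb at week 3, against 137, 108 and 115 kb for the always marked promoters. The mean counts were lower (medians 4.73, 6.64 and 8.31 against 6.14, 7.21 and 9.91). The large receptor gene clusters followed the breadth of the lists. Of 1087 olfactory receptor gene entries 678, 79, 1024 and 543 were marked in mESC and EB weeks 1, 2 and 3. The 1024 entries of week 2 lay in only 81 domains, and the median length over the entries was 911 kb. Vomeronasal receptors behaved alike, with 141, 8, 214 and 104 of 320 marked (44.1%, 2.50%, 66.9% and 32.5%). When the lists were cut to equal covered length, the marked olfactory receptors numbered 39, 79, 195 and 45, so week 2 was still the highest. These were 3.59%, 7.27%, 17.9% and 4.14%, against 9.30%, 20.5%, 5.59% and 9.70% of all promoters.

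For all promoters the marked shares by stage were 34.9%, 20.5%, 29.8% and 33.2%, and at equal covered length 9.30%, 20.5%, 5.59% and 9.70%. Of 97 keratin and keratin-associated genes, 49 of which lie on chromosome 11, 80, 31, 63 and 65 were marked by stage (82.5%, 32.0%, 64.9% and 67.0%). The 80 lay in 10 domains. Of 24 clustered protocadherins all were marked in mESC and at weeks 2 and 3, when they lay in 1, 2 and 3 domains, and 14 were marked at week 1 in 6 domains. Germline genes known to be silenced by DNA methylation had 14, 3, 9 and 12 of 18 promoters marked. Of 53 defensins 35 lie on chromosome 8, and 29, 7, 30 and 41 were marked (54.7%, 13.2%, 56.6% and 77.4%). The marked counts by stage at equal covered length were 5, 31, 0 and 10 for the keratin genes (5.15%, 32.0%, 0% and 10.3%). They were 24, 14, 0 and 3 for the protocadherins (100.0%, 58.3%, 0% and 12.5%) and 3, 3, 1 and 3 for the germline genes (16.7%, 16.7%, 5.56% and 16.7%). For the defensins they were 2, 7, 13 and 12 (3.77%, 13.2%, 24.5% and 22.6%).

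Domain length set the lists apart along the whole distribution. The median domain was 61.2 kb in mESC (59.4 to 63.0), 8.75 kb at week 1 (8.75 to 10.5), 64.8 kb at week 2 (61.2 to 66.6) and 46.8 kb at week 3 (45.0 to 46.8). Of the week 1 domains 56 reached 100 kb (0.839%), against 34.2% in mESC, 37.6% at week 2 and 23.2% at week 3. At week 2 the upper tail was the longest: 246 domains of at least 1 Mb held 50.4% of the covered length, against 8.17% in mESC, 7.96% at week 3 and none at week 1. The longest week 2 domain, 11444 kb on chromosome 14, held 7 coding gene starts, among them Pcdh9, Pcdh20 and Dach1. In mESC the same stretch was covered to 75.1% by 28 domains and at week 3 to 39.8% by 62 domains. At week 1 domains covered 0.291% of it. The longest mESC domain, 3854 kb on chromosome 11, held only Odz2, a teneurin gene. Its stretch was wholly covered at week 2, to 59.5% at week 3 and to 4.90% at week 1. The longest week 3 domain, 3919 kb on chromosome 8, held 6 coding starts, among them those of the cadherin genes Cdh5 and Cdh11. Domains covered 98.4% of it in mESC, 6.65% at week 1 and 99.3% at week 2.

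**Figure D4:**
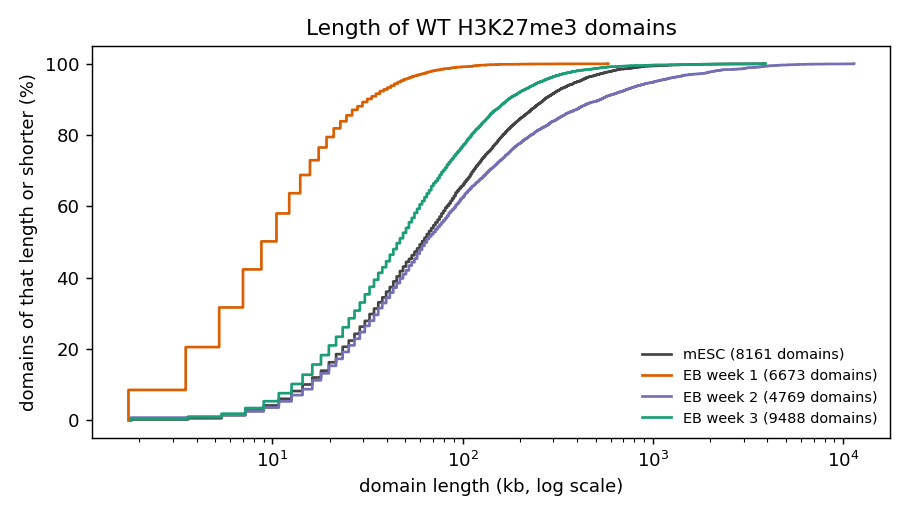
Cumulative share of H3K27me3 domains (percent) by domain length (kb, log scale) in each of the 4 lists. The week 1 curve lies far to the left, with a median of 8.75 kb against 46.8 to 64.8 kb, and the week 2 curve has the longest upper tail, up to 11444 kb. The steps at the left are the bins.

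In every list domains near a coding start were longer than the others. A longer domain is more likely to come within 5 kb of some start, so the definition favours this order. The medians within 5 kb of a start and farther away were 75.6 and 52.2 kb in mESC, 12.2 and 7.00 kb at week 1, 86.4 and 52.2 kb at week 2, and 61.2 and 39.6 kb at week 3. Of the covered length of the week 1 list 28.1% lay within 5 kb of a start, against 6.60% in mESC, 4.87% at week 2, 7.36% at week 3 and 7.56% of the genome. Intergenic sequence made up 46.2% of the week 1 list and 67.1 to 72.6% of the other lists.

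Around the always marked starts, where the definition places a domain of every list within 5 kb, the lists differed in width. The start base itself lay inside a domain for 92.3%, 81.6%, 91.3% and 92.7% of these promoters, in stage order. At 20 kb downstream the shares were 71.0%, 28.3%, 62.5% and 69.0%, and at 100 kb downstream 46.5%, 12.8%, 40.6% and 44.2%. Around the lost starts the week 3 list dipped to 0% at the start, which the definition fixes, and rose to 24.9% at 100 kb downstream. The week 2 list was flat there, with 32.9% at the start and 35.4% at 100 kb downstream. Around the gained starts week 1 showed a small peak, with 19.4% at the start against 7.96% at 100 kb downstream, whereas week 2 held 31.8% and 27.6%.

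**Figure D5:**
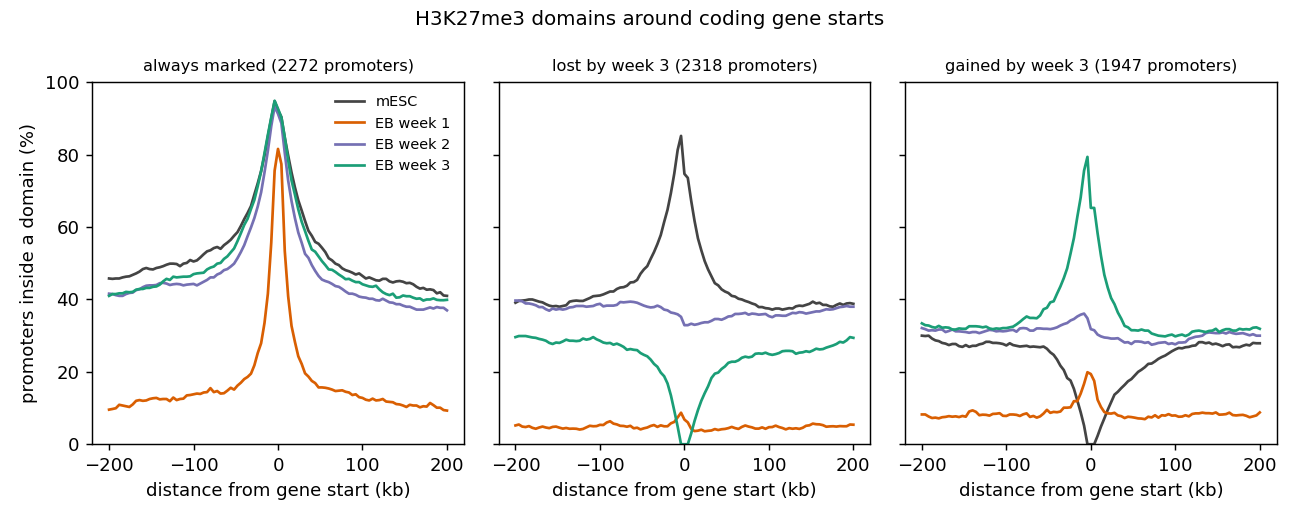
Share of promoters (percent) whose position at a given distance from the gene start (kb, negative upstream) lies inside an H3K27me3 domain, for always marked, lost and gained promoters, 1 line per list. At the always marked starts week 1 falls to 28.3% by 20 kb downstream, against 62.5 to 71.0% in the other lists. The peaks at the always marked starts, and the mESC and week 3 lines at the lost and gained starts, are shaped by the definition of these groups.

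Most domains of the narrow week 1 list overlapped the broad lists. Of its 6673 domains 73.0% overlapped an mESC domain, 62.0% a week 2 domain and 77.0% a week 3 domain, which covered 36.1%, 43.9% and 29.8% of the genome. Fewer lay wholly inside the covered length: 57.7% in mESC, 47.8% at week 2 and 59.3% at week 3. Thus week 2, the broadest list, took in the smallest share of the week 1 domains. In the other direction 37.9% of the mESC domains met a week 1 domain, but only 8.07% of their length was shared. Of the mESC domains 69.9% overlapped a week 2 domain and 72.1% a week 3 domain, and 73.6% and 57.3% of their length was shared. The stretches present in all 4 lists added up to 58.4 Mb in 3399 segments, which was 57.7% of the week 1 list and 6.09% of the mESC list. Of these stretches 26.7% lay within 5 kb of a coding start.

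Marked promoters differed in base composition by list. The CpG observed-to-expected ratio, taken over 500 bases on each side of the start, had a median of 0.549 over all coding promoters. It was 0.616 for promoters marked at week 1 but 0.445 in mESC, 0.320 at week 2 and 0.453 at week 3. Always marked promoters had a median of 0.614. Promoters marked in the 3 broad lists but not at week 1 had one of 0.203, and those marked at week 2 only one of 0.178. Never marked promoters had the highest median of these groups (0.648). Of promoters with a ratio above 0.6, 29.4% of those marked in mESC were lost by week 3 (27.7 to 31.0). Of the rest marked in mESC 29.9% were lost (28.7 to 31.2), so the lost shares were alike. Gain was 9.74% (9.08 to 10.4) above 0.6 and 17.0% (16.1 to 17.9) in the rest.

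H3K4me3 and H3K9me3, measured in separate libraries, were counted at the same promoters. An H3K4me3 domain lay within 2 kb of the start in mESC for 63.2% of all coding promoters. The share was 73.2% for always marked promoters (71.3 to 75), 73.9% for never marked promoters, 86.0% for those marked at week 1 only and 84.3% for those marked at every EB week but not in mESC. It was 24.3% both for those marked in the 3 broad lists but not at week 1 and for those marked at week 2 only. Among the always marked promoters it was 73.2%, 71.8%, 72.1% and 77.0% in mESC and at weeks 1, 2 and 3. An H3K9me3 domain of mESC lay within 5 kb for 48.2% of the always marked promoters and for 76.6% of those missing at week 1 alone, against 29.7% of all and 12.2% of the never marked. It was 9.16% for those marked at week 1 only and 59.9% for those marked at week 2 only. Always and never marked promoters thus had like shares of H3K4me3 but not of H3K9me3.

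Few of the promoters that lost H3K27me3 newly had H3K4me3 at week 3, but many already had it in mESC. Among the 2318 lost promoters 48.4% had H3K4me3 in mESC and 54.0% at week 3, and 167 had it newly at week 3 (7.20%, 6.22 to 8.33). Among the 5482 promoters that kept H3K27me3 the new share was 9.07% (8.33 to 9.86). It was 6.21% (5.23 to 7.38) for the gained promoters and 4.06% (3.73 to 4.42) for the 12620 unmarked in mESC and at week 3. These are shares of each whole group, and a promoter with H3K4me3 in mESC could not have it newly. In mESC it was present at 1122 of the lost promoters (48.4%), 2978 of the kept (54.3%), 1077 of the gained (55.3%) and 8953 of the unmarked (70.9%). The new shares therefore cannot be compared between the groups. Among the gained promoters 55.3% had H3K4me3 in mESC and 58.5% at week 3, and 59 no longer had it at week 3 (3.03%). That share was 1.64% of the lost, 4.40% of the kept and 2.16% of the unmarked promoters. Only promoters with H3K4me3 in mESC could lose it, so these shares cannot be compared between the groups either. Myl7, the atrial light chain of myosin, is one lost promoter with H3K4me3 in mESC and at weeks 1 and 3. Myh6 had H3K4me3 at week 1 only, and it had no H3K27me3 domain at weeks 1 and 2.

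How often a promoter kept the mark differed with the mean count and the length of its domain. When the mESC promoters were divided by mean count into 4 groups of nearly equal size, 56.3% of the lowest group were also marked at week 3 (interval from 54 to 58.4), then 71.6%, 75.8% and 77.5% (75.6 to 79.3). Against week 1 the rise was steeper: 17.1%, 31.2%, 48.4% and 68.8%. Against week 2 it ran the other way, with 67.2%, 62.7%, 62.0% and 60.4%. By length the orders changed. Promoters in the longest of 4 groups of mESC domains were marked at week 2 in 82.0% of cases against 38.5% in the shortest group, and at week 1 in 36.2% against 48.3%. From week 2 to week 3 the shortest group kept the mark in 83.7% and the longest in 58.8%.

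Loss and gain also differed by chromosome. On chromosome 8, 24 of 482 mESC promoters were lost (4.98%) and 187 were gained (31.2% of those unmarked), and 645 of its 1082 promoters were marked at week 3 (59.6%). On chromosome 11, 28.2% were lost and 6.46% gained. On X, 127 of 145 mESC promoters were lost (87.6%) and 4 were gained, and 22 of 932 were marked at week 3 (2.36%). Over the autosomes alone 28.6% of the mESC promoters were lost and 14.1% of the others gained. Of the gained promoters 9.60% lay on chromosome 8, which holds 4.84% of all coding promoters. The part of any feature of chromosome 8, 11 or X in these counts was not tested.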

How the data were processed

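ChIP-seq domains of H3K27me3 were compared in WT mESC and WT EBs at weeks 1, 2 and 3, grouped by GEO's labels. Per the labels and the study's methods, the authors mapped reads to mm9 with Bowtie2 2.1.0, keeping 1 alignment per read, and called domains in each library against input with RSEG, without pooling. The deposited signal of a domain is its mean read count per bin, and the deposited score grows with the number of bins. It is not stated whether either was scaled to depth, so both were used only within a list. Read totals were not used here, and the number of domains and promoters sets the precision.

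Gene starts came from the GENCODE annotation of mm9 (22367 coding genes outside the mitochondrion). Overlaps, Wilson 95% intervals and order-statistic intervals of medians were computed with Python 3.11, numpy 2.4.6, scipy 1.17.1 and pysam 0.24.0, plots with matplotlib 3.10.9, and overlap calls were tested on simulated data. H3K4me3 (within 2 kb) and mESC H3K9me3 (within 5 kb) domains of WT libraries served as promoter properties. The members, gene lists and rules were chosen with earlier results of these data known. Named genes were a set of 36 markers, of which 35 were matched (Sox1 was not) and not all are reported here, the 5 promoters with the highest mean count of each of 4 patterns, and the 2 longest domains of each list. The rankings by mean count kept 1 gene per domain and left out chromosome 18 and genes with clone names. Other names are list members singled out after their values were seen. Alternatives were narrower windows, other starts, higher scores, lists of equal number or length, thinned promoters, autosomes, and, chosen after seeing the data, the lists without chromosomes 8 and 11 and the gene lists at equal covered length.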

Additional observations from a re-analysis of the deposited data

How the results depend on the processing

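With 1 library per stage, each value was called moved when it left the 95% interval of the reported value. Intervals over promoters are too narrow where promoters share a domain, so a small shift can also be called moved. No paired analysis was possible because each group held 1 replicate and the results came from no test. In order, the marked shares in mESC and at weeks 1, 2 and 3 and the always marked, lost and gained shares are given; they were 34.9%, 20.5%, 29.8%, 33.2%, 10.2%, 29.7% and 13.4% as reported. With a window of 2 kb they were 32.1%, 17.6%, 28.0%, 30.0%, 8.89%, 31.2% and 11.6%. With the start base itself inside a domain they were 29.4%, 13.9%, 26.4%, 27%, 7.68%, 31.6% and 9.71%. With domains of lower than median score left out they were 24.6%, 14.2%, 22.9%, 23.8%, 4.80%, 34.5% and 10.3%. With the lists cut to an equal number of domains they were 26.6%, 17.7%, 29.8%, 23.9%, 7.19%, 35.7% and 9.23%. With lists of equal covered length they were 9.30%, 20.5%, 5.59%, 9.70%, 2.01%, 52.7% and 5.84%. With any transcript start they were 36.1%, 21.8%, 30.7%, 34.4%, 10.8%, 29.2% and 13.9%. With 1 promoter per 10 kb they were 37.0%, 20.7%, 31.7%, 34.9%, 10.6%, 29.7% and 14.1%. On autosomes they were 35.7%, 21.2%, 30.9%, 34.6%, 10.6%, 28.6% and 14.1%. Without chromosomes 8 and 11, an alternative chosen after seeing the data, they were 33.4%, 18.5%, 29.5%, 31.5%, 9.19%, 31.7% and 13.0%. Week 1 thus had the smallest marked share under every one of these settings except equal covered length, where it had the largest, and without chromosomes 8 and 11 it remained the smallest. Leaving out week 1 gave 18.1% always marked. Median lengths were 135, 17.5, 175 and 93.6 kb at or above the median score and 75.6, 12.2, 86.4 and 61.2 kb near coding starts, and joining domains at most 5 kb apart left them as reported. With at least 50% of a domain covered by the other lists, taken in stage order, the overlap was 9.64%, 59.4%, 50.9% of the mESC domains, 70.1%, 59.8%, 74.6% of the week 1 domains, 61.4%, 16.3%, 61.3% of the week 2 domains and 60.6%, 10.1%, 63.0% of the week 3 domains. In all, 75 of 88 alternatives moved a value of 23 results and 13 did not. The cause of these moves was not tested, beyond the narrower window or shorter lists that an alternative builds in.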

Other observations

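Imprinted genes, expressed from 1 parental copy, had 17, 11, 8 and 15 of 26 promoters marked in mESC and EB weeks 1, 2 and 3, and 6 were always marked (23.1%, against 10.2% of all promoters; 2 at equal covered length), among them Cdkn1c, Grb10 and Kcnq1. Igf2, Dlk1, Phlda2 and Slc22a18 were marked in mESC and at weeks 1 and 3. The 17 promoters marked in mESC lay in 11 domains, so neighbours in 1 imprinted region were not separate observations.

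Blood and endothelial genes were marked in 12 of 21 cases in mESC and 15 at week 3, with none lost, against 34.9% and 33.2% of all promoters marked and 29.7% lost. At equal covered length, for which the lists were cut to the length of the week 1 list, the direction turned, with 9 marked in mESC and 6 at week 3. Runx1, which directs the first blood stem cells, was marked at week 2 (75.6 kb) and week 3 (199.8 kb), and Etv2, a regulator of the blood and endothelial lineage, at weeks 1, 2 and 3 (7.00, 7.20 and 10.8 kb). Of 22 fibroblast growth factor genes 6 were always marked, 4 of 14 were lost and 4 of 8 gained, against 10.2%, 29.7% and 13.4% of all promoters, and none was always marked at equal covered length. Of 38 genes of the TGF-beta, BMP and hedgehog ligands and their inhibitors 12 were always marked, including Shh, whose domains were 88.2, 22.8, 64.8 and 70.2 kb long, and Nog. At equal covered length 3 of the 38 were. These genes were singled out after their values were seen.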
